A study of Homo sapiens with 16 samples.

Results

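The response of K1 cells to nutlin was taken from 4 of the 16 libraries of the series, chosen by the line and treatment in their labels: 2 libraries of cells given vehicle (0.2% DMSO) and 2 of cells given 10 µM nutlin, each for 24 h. All 25369 genes of the count table were considered, and the 15900 that exceeded 0.1 CPM (counts-per-million, the share of a library's counts) in at least 2 K1 libraries were tested. K1 is a human papillary thyroid carcinoma line, a derivative of GLAG-66, that carries wild-type p53, so each result describes a single cell line. The other K1 libraries held cells given 25 µM GSK2830371, a PPM1D inhibitor, alone or with nutlin, 2 libraries each. They entered the filter of genes, the scaling and the estimate of the spread, but not the contrast itself. With the DMSO and nutlin libraries alone, 15453 genes were tested, of which 592 were raised and 867 lowered. The 8 libraries of TPC1, another papillary thyroid carcinoma line under the same treatments, served for the comparison of nutlin responses at the end. The comparison of nutlin with DMSO asks what release of p53 from MDM2 does to the transcriptome of K1 when PPM1D is left active.

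p53 is a transcription factor that MDM2 holds in check, both by covering its transactivation domain and by marking it for degradation. Nutlin-3a fills the p53 pocket of MDM2, so p53 accumulates without DNA damage. Among its targets, CDKN1A encodes the CDK inhibitor p21, which keeps the RB family hypophosphorylated. RB then restrains E2F factors at genes of the G1/S transition and DNA replication, and the DREAM complex silences G2 and mitotic genes through a promoter element called the CHR. Other targets encode death receptors, BH3-only proteins, DNA repair factors, metabolic enzymes and the negative regulators MDM2 and PPM1D themselves.

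The promoter letters of the E2F and CHR elements are shown first, because the DNA replication and mitosis lists differ in them. Whether the letters bear on the change of either list was not tested. Windows from 250 bases before to 50 after the start of the canonical transcript were read from GRCh37, the build of the files, with GENCODE starts, for 14833 of the 15900 genes tested (93.3%). Both strands were searched for the CHR letters TTTGAA and for the E2F letters TTTGGCGC, TTTCCCGC or TTTCGCGC. No gene had CHR and E2F letters that shared bases. Stretches of 30 bases upstream of the start are given 5′ to 3′ on the strand of the gene, with the matched E2F or CHR letters in capitals (the forms that begin with GCG are the same letters on the other strand). The first set is from genes that fell steeply and hold E2F letters.
FAM111B, chr11:58874647-58874676, plus strand: agcccttctagGCGGGAAAagttcagctga
ZNF367, chr9:99180669-99180698, minus strand: gttccgcccagGCGCGAAAtgtaacgcggg
DTL, chr1:212209060-212209089, plus strand: caatcagagagcgtgacgtcagTTTGGCGC
E2F1, chr20:32274193-32274222, minus strand: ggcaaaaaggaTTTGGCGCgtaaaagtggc
E2F2, chr1:23857749-23857778, minus strand: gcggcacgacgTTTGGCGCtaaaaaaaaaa
CDC25A, chr3:48229933-48229962, minus strand: ggtggattccgTTTGGCGCcaactaggaaa
PKMYT1, chr16:3030449-3030478, minus strand: ggtttggaattTTTGGCGCgagcagctccg

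The second set is from proliferation and mitosis genes that hold CHR letters; CENPA also holds E2F letters elsewhere in its window.
MKI67, chr10:129924699-129924728, minus strand: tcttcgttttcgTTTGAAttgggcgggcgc
NCAPG, chr4:17812555-17812584, plus strand: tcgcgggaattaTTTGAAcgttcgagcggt
HJURP, chr2:234763275-234763304, minus strand: gacgcaaatttgTTTGAAaggcccaatcag
CENPA, chr2:27008894-27008923, plus strand: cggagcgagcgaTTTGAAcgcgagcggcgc

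CHR letters lay in 53 of 64 windows of the mitosis list (82.8%), against 1440 of all 14833 (9.71%). E2F letters lay in 27 of 55 windows of the DNA replication list (49.1%), against 622 of all (4.19%). Few windows of either list held the letters of the other: 2 of the 55 replication windows held CHR letters and 2 of the 64 mitosis windows held E2F letters. The mitosis and replication lists were also rich in CCAAT, which lay in 75% and 56.4% of their windows against 35.7% of all. A match of letters is a description of sequence and not a measured binding site.

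The K1 libraries held 35171459 and 37161241 counts with DMSO and 28888686 and 32829141 with nutlin, and the 5 genes with the most counts took 9.47% to 10.3% of a library. The first principal component of the 8 K1 libraries (71.9% of the variance) placed both nutlin libraries apart from both DMSO libraries. The sample labels do not say that replicates were separate cultures, while the study states for its experiments in general that they were independent preparations. The p-values measure the spread between these libraries. The thyroid lineage factors PAX8 (749 to 841 raw CPM over the 4 libraries) and FOXE1 (28.8 to 33.4) and the epithelial keratins KRT8 and KRT18 were abundant. TSHR, DIO1 and DUOXA2 had no count, NKX2-1 reached 0.346 CPM and CDH1, EPCAM and KRT19 stayed under 1 CPM. CD3E and HBB, which mark blood cells, had no count. The floor that a count of 0 allows was 0.0807 to 0.104 CPM per library (3 counts, for counting error only). The 14 markers of other cells summed to 93.6 to 109 CPM with DMSO and 124 to 129 with nutlin, most of it CD68 and ACTA2, and 3 of the 14 were at 0 in every library. Their part in the results was not tested.

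Nutlin raised 611 genes (3.84% of those tested) and lowered 863 (5.43%), or 9.27% in either direction, where a call needed a Benjamini-Hochberg adjusted p under 0.05 in the quasi-likelihood test of edgeR and a fold change above 1.5. By adjusted p alone, 13.5% were higher and 16.6% lower. In both groups most changes were moderate. Of the 611 raised genes, 271 passed a log2 fold change of 1 and 107 passed 2, and of the 863 lowered genes, 412 passed 1 and 63 passed 2. The median change over all genes tested was -0.0017, with quartiles at -0.222 and 0.206. The raised genes held 1.39% and 1.38% of the counts with DMSO and 2.71% and 2.70% with nutlin, and the lowered genes went from 4.14% and 3.997% to 1.98% and 2.12%. The share of genes lowered was highest (7.81%) among those averaging 5 to 20 CPM, while the share raised was highest (8.55%) at 1 to 5 CPM. CPM values are relative within a library, so fewer cells of a type and less RNA per cell cannot be told apart. The replicates of the 2 groups did not overlap in 63.9% of all genes, so separation alone says little of a gene.

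**Figure D1:**
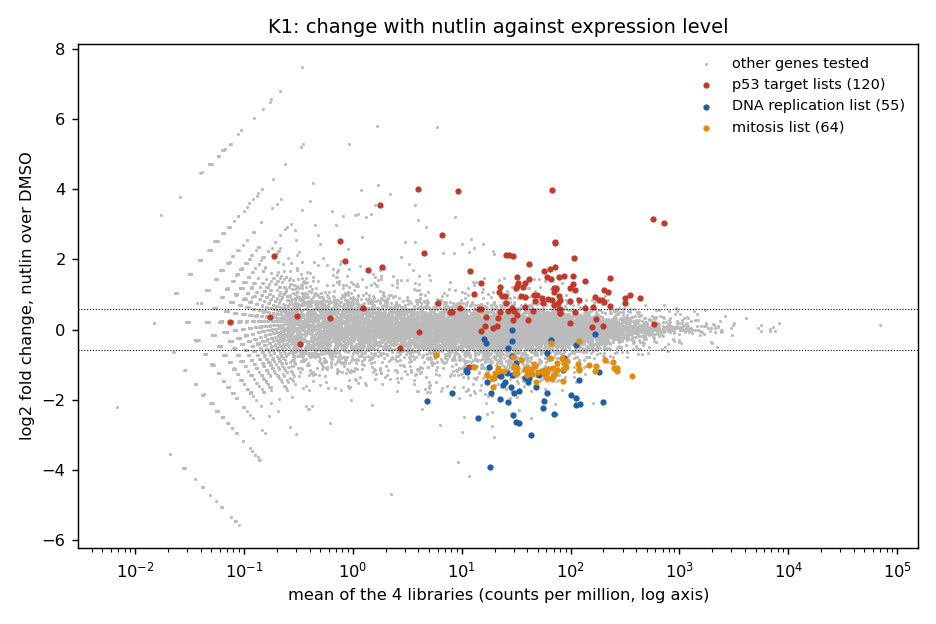
Fitted log2 fold change with nutlin in K1 (vertical axis) against the mean of the 4 DMSO and nutlin libraries in CPM (horizontal log axis), for each of the 15900 genes, with dotted lines at 1.5-fold changes. The 120 p53 targets lie mostly above 0, and the 55 replication and 64 mitosis genes lie below it.

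The steepest rise among genes of at least 5 CPM was that of TP73, which encodes a p53 family member. TP73 stood at 0.143 and 0.270 CPM with DMSO and 11.1 and 11.98 with nutlin, a 54.5-fold rise (log2 fold change 5.77, SE 0.20, adjusted p = 3.1e-10). INPP5D, the lipid phosphatase SHIP1, had 0.399 and 0.512 CPM with DMSO and 7.49 and 7.39 with nutlin (log2 fold change 4.01, SE 0.20, adjusted p = 6.3e-09). Both were near silent in vehicle and clearly present with nutlin. PVRL4, the adhesion molecule nectin-4, had 0.741 and 0.431 CPM with DMSO and 6.34 and 7.36 with nutlin (log2 fold change 3.55, SE 0.22, adjusted p = 3.9e-08), and the cadherin CDH10 had 1.77 and 1.59 CPM with DMSO and 16.9 and 14.1 with nutlin (log2 fold change 3.20, SE 0.17, adjusted p = 1.1e-08). RRAD, a small GTPase of the Ras-related family, rose from 0.913 and 0.728 to 6.52 and 7.64 CPM, and ACER2, an alkaline ceramidase, from 1.83 and 1.73 to 11.5 and 11.6 CPM. The antisense transcript FLG-AS1 rose by 2.93 on the log2 scale and SUGCT, a mitochondrial CoA transferase, by 2.59. Each of these genes had both nutlin libraries above both DMSO libraries, which was part of the rule that chose them.

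Of the 12 steepest falls among called genes of at least 5 CPM, 5 were in the DNA replication list. CCNE2, which encodes cyclin E2, the CDK2 partner at the start of S phase, had 19.99 and 23.8 CPM with DMSO and 1.35 and 1.06 with nutlin, 18.3-fold lower with nutlin (log2 fold change -4.19, SE 0.15, adjusted p = 3.3e-10). FAM111B, a protease that follows the replication program, had 30.5 and 37.99 CPM with DMSO and 2.32 and 2.20 with nutlin (log2 fold change -3.92, SE 0.13, adjusted p = 1.8e-10). ZNF367, a zinc finger factor, had 15.9 and 18.8 CPM with DMSO and 1.46 and 1.09 with nutlin (log2 fold change -3.78, SE 0.17, adjusted p = 2e-09). Of the 12 windows 8 held E2F letters, and those of CCNE2, WDR76, MCM10 and ORC1 did not. WDR76 (-3.07), the CRL4 adaptor DTL (-3.01), CDCA7 (-2.93), PAQR4 (-2.74), the repressor E2F8 (-2.71), the checkpoint mediator CLSPN (-2.66), the replication initiator MCM10 (-2.63), the activator E2F1 (-2.53) and the origin subunit ORC1 (-2.51) completed the 12 largest falls at that level. In none of them did a nutlin library reach a DMSO library, which was part of the rule that chose them.

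**Figure D2:**
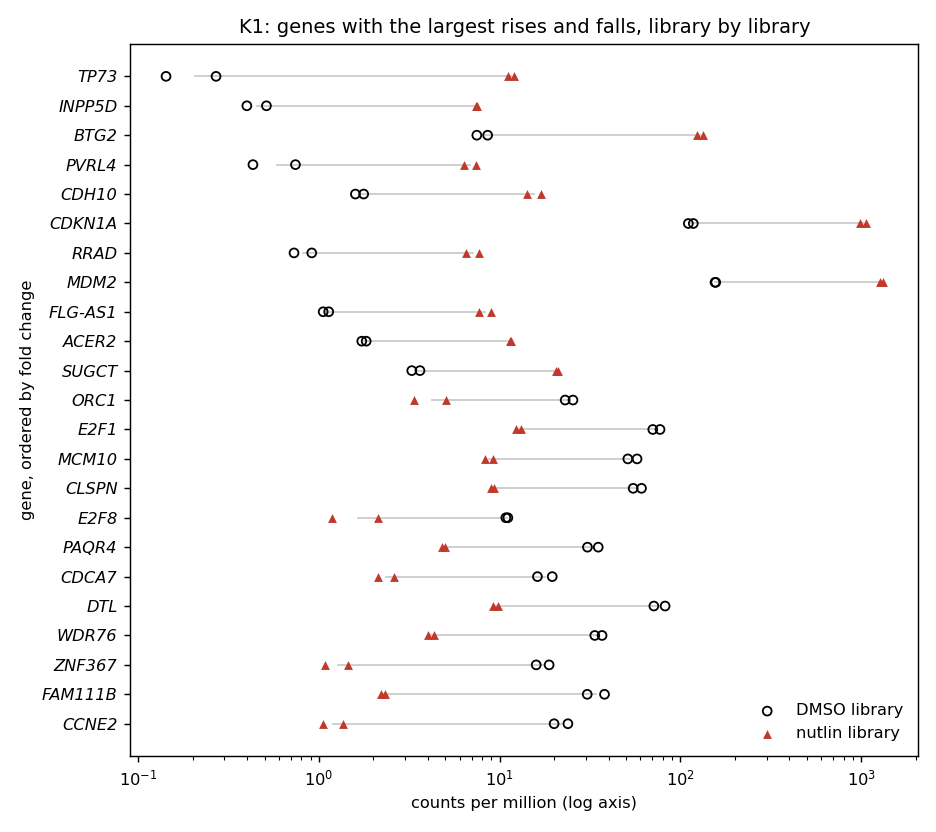
CPM (log axis) of 11 of the 12 genes with the largest rise and the 12 with the largest fall, in each DMSO library (open circles) and nutlin library (triangles); grey lines join the group means. TP73 moved furthest up and CCNE2 furthest down, and replicates lay close together beside the change.

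Among called genes, MDM2 and CDKN1A gained the most CPM, a quantity that is not scaled by gene length. CDKN1A (chr6:36644237-36655114, protein-coding) went from 111 and 118 to 979 and 1066 CPM, 8.96-fold (log2 fold change 3.16, SE 0.06, adjusted p = 2.1e-12). MDM2 (chr12:69201957-69239324) went from 155 and 157 to 1262 and 1313 CPM, 8.26-fold (log2 fold change 3.05, SE 0.07, adjusted p = 4.7e-12). The 4 libraries of each gene fell into tight pairs. IL1B, the cytokine interleukin-1 beta, was next among called genes, with 726 and 739 CPM with DMSO and 1159 and 1072 with nutlin, but its 1.52-fold change sat at the edge of the call: without nutlin replicate 1 its log2 fold change was 0.549 and it was no longer called. LRP1, an endocytic receptor, had 574 and 512 CPM with DMSO and 864 and 906 with nutlin, a gain that was not called after correction for GC content and length. TNFRSF10D, a TRAIL decoy receptor, had 297 and 309 CPM with DMSO and 552 and 570.3 with nutlin. The largest losses in mean CPM among called genes were in PRKDC, the catalytic subunit of DNA-PK (958 and 936 CPM with DMSO and 621 and 625 with nutlin), the proliferation marker MKI67 (564 and 489 CPM with DMSO and 188 and 232 with nutlin), the helicase subunit MCM4 (313 and 325 CPM with DMSO and 71.1 and 80.01 with nutlin), the chromatin protein HMGB1 (623 and 632 CPM with DMSO and 386 and 404 with nutlin) and the heterochromatin protein CBX5 (568 and 550.1 CPM with DMSO and 335 and 360.3 with nutlin). The fall of HMGB1 also failed the call after the GC and length correction. The most abundant transcript, fibronectin FN1, had 68673 and 64793 CPM with DMSO and 72406 and 74002 with nutlin, a larger gain in CPM that was not called, and neither were ACTB, FTH1, GAPDH and EEF1A1.

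Of 120 listed p53 targets that could be tested (124 listed), 86 rose and 1 fell, beside 3.84% raised and 5.43% lowered among all genes, and their median log2 fold change was 0.91. A further 18 of the 33 not called were higher at an adjusted p under 0.05 but changed by less than 1.5-fold. The lists hold genes taken as known p53 targets, and their members were chosen with earlier results of these data known. Their direction is therefore a description of K1, and neither a test nor a discovery of targets.

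Of the 11 genes of the p53 feedback list, a mix of p53 repressors and other targets, 9 rose (median 1.16). PPM1D, the phosphatase that opposes p53 and its kinases, had 20.96 and 22.6 CPM with DMSO and 50.8 and 58.2 with nutlin (log2 fold change 1.32, SE 0.09, adjusted p = 7.8e-08). TP53INP1, a stress-induced cofactor, had 23.4 and 20.2 CPM with DMSO and 119 and 126 with nutlin (log2 fold change 2.49, SE 0.12, adjusted p = 3.5e-09), and ZMAT3, an RNA-binding zinc finger protein, had 120.5 and 122 CPM with DMSO and 342 and 333 with nutlin (log2 fold change 1.48, SE 0.06, adjusted p = 6.1e-10). Between these, CCNG1 (0.93), FBXW7 (1.07), PHLDA3 (1.08), FBXO22 (1.16) and TRIM22 (1.45) also rose on the log2 scale. MDM4, the MDM2 partner that nutlin blocks poorly, had 31.5 and 29.5 CPM with DMSO and 33.03 and 33.5 with nutlin and was not called (95% interval of the log2 change -0.05 to 0.30). TP63 was below the filter.

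Of the 11 arrest genes, 8 rose (median 0.75). BTG2, an antiproliferative factor that recruits deadenylases, had 7.47 and 8.57 CPM with DMSO and 123 and 133 with nutlin (log2 fold change 3.99, SE 0.09, adjusted p = 4.7e-12). GADD45A, a stress sensor, had 37.01 and 44.5 CPM with DMSO and 116 and 114 with nutlin (log2 fold change 1.498, SE 0.08, adjusted p = 9e-09). PLK3, SERTAD1, PLK2, PTP4A1 and IER5 rose by log2 0.60 to 1.17. SFN, which encodes 14-3-3 sigma, stayed under 1 CPM and was not called. Within the BTG/TOB family TOB1 rose with BTG2 (23.6 and 22.9 CPM with DMSO and 42.9 and 47.1 with nutlin), whereas BTG1, TOB2 and BTG3 were not called (0.04, 0.30 and -0.54). Of the 6 CDK inhibitors tested, CDKN1A was the single one raised. CDKN2C, the INK4 protein p18, had 41.2 and 34.2 CPM with DMSO and 13.5 and 19.7 with nutlin (log2 fold change -1.18, SE 0.16, adjusted p = 6.2e-05) and CDKN3, a CDK2 phosphatase, had 17.7 and 17.2 CPM with DMSO and 10.2 and 11.3 with nutlin. CDKN1B, CDKN1C and CDKN2D were not called, and CDKN2A and CDKN2B were below the filter.

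Of the 19 p53 targets of the apoptosis list, 14 rose (median 0.89). BBC3, the BH3-only protein PUMA, had 10.7 and 9.41 CPM with DMSO and 40.9 and 47.4 with nutlin (log2 fold change 2.14, SE 0.09, adjusted p = 1.9e-09). TP53I3, an oxidoreductase, had 28.6 and 26.7 CPM with DMSO and 83.3 and 90.9 with nutlin, and the TRAIL receptor TNFRSF10A had 5.90 and 5.69 CPM with DMSO and 18.4 and 18.1 with nutlin. FAS (45.6 and 44.4 CPM with DMSO and 107 and 97.3 with nutlin) and TNFRSF10B (130.5 and 126 CPM with DMSO and 277 and 286 with nutlin), also death receptors, both more than doubled in mean CPM. BAX, the pore-forming effector, rose by 1.55-fold (log2 fold change 0.63, SE 0.05, adjusted p = 7.6e-07) and APAF1 by log2 0.62. PMAIP1, which encodes NOXA, had a log2 fold change of 0.10 and was not called. The BCL2 family list was split. BAX, BBC3 and, by log2 0.60, the effector BAK1 rose. The pro-survival BCL2L1 rose too (133 and 148 CPM with DMSO and 269 and 279.7 with nutlin), BCL2 fell (16.995 and 16.5 CPM with DMSO and 10.3 and 8.76 with nutlin), and the BH3-only BCL2L11, or BIM, fell (3.22 and 2.64 CPM with DMSO and 1.25 and 1.12 with nutlin), while MCL1 was not called. Of 24 death receptors, caspases and their regulators, 6 rose and 1 fell: besides the receptors and APAF1, CASP10 rose by log2 0.77 and CASP2 fell (36.96 and 40.01 CPM with DMSO and 21.8 and 23.9 with nutlin). CASP8 and CASP9 were not called.

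Of the 8 p53 targets of DNA repair, 7 rose and FANCC fell. RRM2B, the p53-inducible ribonucleotide reductase subunit, had 76.1 and 72.8 CPM with DMSO and 202 and 189 with nutlin (log2 fold change 1.39, SE 0.08, adjusted p = 2.1e-08). APOBEC3C, a cytidine deaminase, had 59.6 and 62.5 CPM with DMSO and 144 and 153 with nutlin, and XPC, the damage sensor of nucleotide excision repair, had 62.02 and 58.9 CPM with DMSO and 135 and 140.2 with nutlin. POLH, DDB2, RPS27L and ASCC3 rose by log2 0.83 to 1.18. FANCC, a Fanconi core subunit, had 14.3 and 17.5 CPM with DMSO and 7.17 and 7.98 with nutlin (log2 fold change -1.07, SE 0.12, adjusted p = 1.4e-05). The promoter window of FANCC held E2F letters in 2 places and CHR letters once.

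Of the 22 metabolic targets, 14 rose (median 0.82). FDXR, the mitochondrial reductase of iron-sulfur cluster and steroid synthesis, had 23.2 and 20.9 CPM with DMSO and 117 and 129 with nutlin (log2 fold change 2.48, SE 0.07, adjusted p = 4.7e-11). The sestrins, which restrain mTORC1 when leucine is short or stress is sensed, rose as a family: SESN1 had 11.4 and 10.8 CPM with DMSO and 46.6 and 49.1 with nutlin, SESN2 had 44.4 and 45.9 CPM with DMSO and 128 and 130.3 with nutlin and SESN3 had 30.2 and 24.7 CPM with DMSO and 65.98 and 82.4 with nutlin. Together with the AMPK subunit PRKAB2 (log2 0.74) they made up the 4 of 16 mTORC1 brakes that rose, and none fell. C12orf5, which encodes TIGAR, rose by log2 1.80 and DGKA, a diacylglycerol kinase, by 1.73. DDIT4, or REDD1, had a log2 fold change of 0.52 and was not called. Of 45 autophagy and lysosome genes 3 rose and none fell, DRAM1 (24.7 and 22.7 CPM with DMSO and 41.1 and 50.8 with nutlin), GABARAPL1 (9.72 and 8.92 CPM with DMSO and 15.04 and 15.5 with nutlin) and ATG4A (12.5 and 13.4 CPM with DMSO and 19.6 and 21.1 with nutlin), with a list median of 0.14.

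Of the 28 membrane and signalling targets, 18 rose (median 0.82), with INPP5D among the highest. VWCE had 0.171 and 0.270 CPM with DMSO and 1.56 and 1.02 with nutlin, a rise between low levels. CYFIP2, a WAVE complex subunit, rose by log2 2.04, TSKU by 1.51, CSF1 by 1.12 and the receptor EPHA2 by 0.79.

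The windows were also searched for a p53 response element without a spacer and with at most 2 mismatches outside its core. Such an element lay in the windows of 15 of all 14833 genes (0.101%). It lay in 5 of 557 windows of raised genes (0.898%, AEN, PTCHD4, SIGLEC14 and VSIG1 among them) and in none of 835 windows of lowered genes. Only these short windows were searched. Of the 21 targets of other function, 16 rose. ABCA12, a lipid transporter of skin, had 0.200 and 0.350 CPM with DMSO and 3.26 and 3.35 with nutlin, PRDM1, the repressor BLIMP1, had 1.45 and 1.81 CPM with DMSO and 7.90 and 6.86 with nutlin and FAM212B had 10.2 and 8.76 CPM with DMSO and 40.5 and 42.8 with nutlin. ATF3, a stress-induced bZIP factor, had 0.627 and 1.29 CPM with DMSO and 1.94 and 1.09 with nutlin: the groups overlapped and it was not called. The study describes ATF3 mRNA as clearly induced by nutlin in K1, among other lines, by RNA-seq. At these low levels such a rise was not resolved here.

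**Figure D3:**
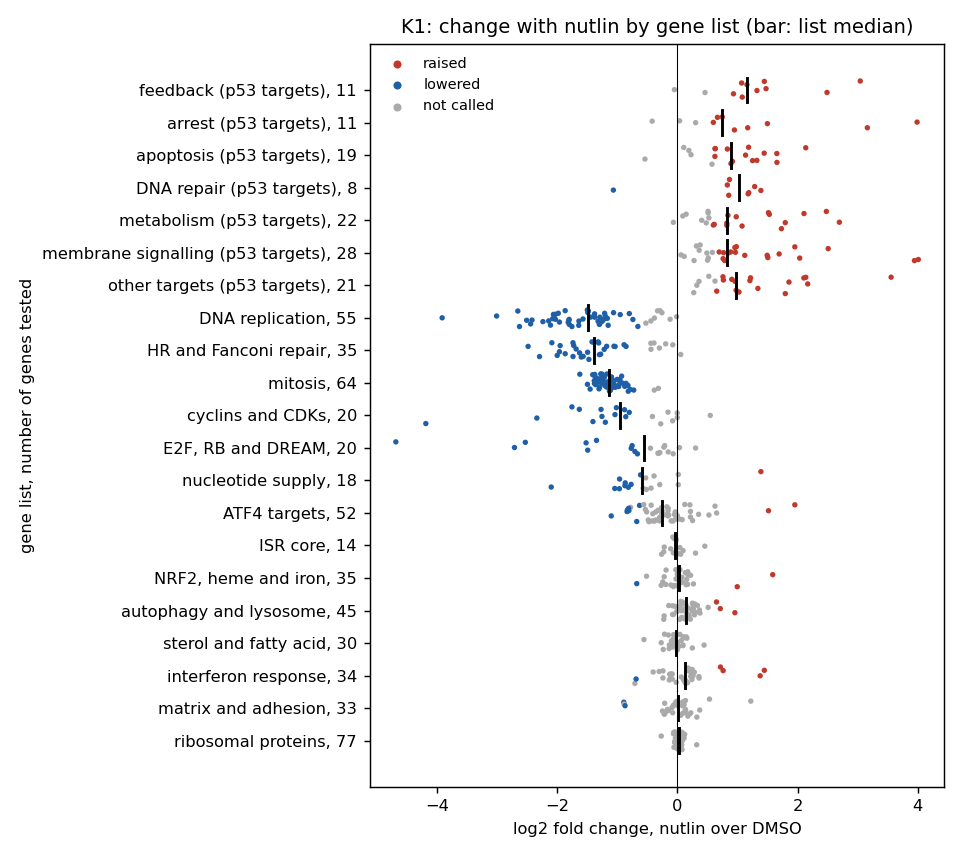
Fitted log2 fold change with nutlin in K1 for each tested gene (points) of 21 gene lists, coloured by whether the gene was raised, lowered or not called; bars mark list medians. The 7 p53 lists sit to the right, replication, repair and mitosis to the left, and the ribosomal proteins close to 0.

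Of 212 listed cell cycle genes tested, 169 fell and 1 rose, beside 5.43% lowered among all genes, with a median log2 fold change of -1.18. The one that rose was RRM2B, which is also a p53 target. The replication list had the lower median and the wider spread, and the mitosis list the narrower one.

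In the DNA replication list 47 of 55 fell (median -1.48). The licensing factors ORC1, CDC6 (-2.24) and CDT1 (-2.45) fell by more than log2 2, and the 6 subunits of the MCM2-7 helicase fell by log2 -1.87 (MCM5) to -2.42 (MCM3). DTL had 71.2 and 82.2 CPM with DMSO and 9.22 and 9.78 with nutlin (log2 fold change -3.01, SE 0.09, adjusted p = 7.1e-11), CLSPN had 54.8 and 60.9 CPM with DMSO and 8.98 and 9.31 with nutlin (log2 fold change -2.66, SE 0.10, adjusted p = 4.2e-10) and MCM10 had 51.1 and 57.5 CPM with DMSO and 8.28 and 9.22 with nutlin (log2 fold change -2.63, SE 0.09, adjusted p = 2.1e-10). UHRF1 (-2.15) and DNMT1 (-1.20), which copy DNA methylation to the new strand, fell too. PCNA, the sliding clamp, is both a replication gene and a known p53 target, and its log2 fold change of -0.12 was not called. LIG1 (-0.29) and the later-named origin subunits ORC2 to ORC5 were also not called. PCNA and LIG1 were singled out after their values were seen.

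Of the nucleotide supply genes 9 of 18 fell. RRM2, the S-phase ribonucleotide reductase subunit, had 258 and 267 CPM with DMSO and 55.7 and 66.4 with nutlin (log2 fold change -2.10, SE 0.08, adjusted p = 3.9e-10), while its paralog RRM2B rose. TK1 had 105 and 102 CPM with DMSO and 49.1 and 51.1 with nutlin and DCK had 35.99 and 34.8 CPM with DMSO and 17.3 and 18.9 with nutlin. TYMS (-0.52), DUT (-0.53) and DTYMK (-0.57) missed the fold threshold. In homologous recombination and Fanconi repair 28 of 35 fell (median -1.39). BARD1, the BRCA1 partner, had 19.2 and 16.3 CPM with DMSO and 2.91 and 3.38 with nutlin (log2 fold change -2.49, SE 0.13, adjusted p = 1.3e-08), the exonuclease EXO1 had 51.9 and 59.04 CPM with DMSO and 11.3 and 11.3 with nutlin (log2 fold change -2.30, SE 0.08, adjusted p = 2.7e-10) and the helicase BLM had 27.2 and 27.4 CPM with DMSO and 6.45 and 6.36 with nutlin. BRCA1 (-1.69) and BRCA2 (-1.60) fell with them. The damage kinases ATM (-0.08) and ATR (-0.44) and the MRN subunits RAD50 (0.05) and NBN (-0.30) were not called.

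Of 20 cyclins and CDKs, 13 fell and none rose. After CCNE2, the largest falls were in the CDK-activating phosphatase CDC25A (28.9 and 34.3 CPM with DMSO and 5.86 and 6.58 with nutlin) and the inhibitory kinase PKMYT1 (66.2 and 66.3 CPM with DMSO and 17.4 and 21.7 with nutlin). CCNE1 (-1.63), CDK1 (-1.41), CCNA2 (-1.27), CDK2 (-1.26) and CCNB1 (-0.88) fell as well. Cyclin D1, CCND1, had 503 and 553 CPM with DMSO and 777 and 766 with nutlin and was not called at a log2 fold change of 0.55, and CDK4 (-0.42) and CDK6 (-0.003) were not called either. Among E2F, RB and DREAM genes 10 of 20 fell. E2F2 had 4.19 and 4.45 CPM with DMSO and 0.104 and 0.217 with nutlin (log2 fold change -4.69, SE 0.30, adjusted p = 6.1e-08), E2F1 had 70.3 and 77.1 CPM with DMSO and 13.1 and 12.3 with nutlin and E2F8 had 11.1 and 10.8 CPM with DMSO and 1.18 and 2.11 with nutlin. E2F7, an atypical repressor that p53 is known to induce, had a log2 fold change of 0.30 and was not called, nor were E2F3, E2F4, E2F5, E2F6, RB1 and RBL2. E2F7 was singled out after its value was seen. RBL1 (-1.52) and MYBL2 (-1.49) fell.

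In the mitosis list 62 of 64 fell, and all 64 fitted changes lay between -1.63 and -0.32 (median -1.14). The kinesin KIF15 had 31.3 and 27.8 CPM with DMSO and 8.01 and 11.1 with nutlin (log2 fold change -1.63, SE 0.16, adjusted p = 3.1e-06), and the condensin subunits NCAPH and NCAPG had 73.6 and 67.6 CPM with DMSO and 22.1 and 27.7 with nutlin and 136 and 112 CPM with DMSO and 41.2 and 49.1 with nutlin. PTTG1 (-0.39) and BUB3 (-0.32) were the members not called. These genes also differed between replicates. In DMSO replicate 2 the list sat below replicate 1 (median log2 difference -0.177, with 1 of 64 genes above), and in nutlin replicate 2 it sat above replicate 1 (0.336, with 63 of 64 above). The fall with nutlin was larger than either difference, and its list median ran from -1.30 to -0.99 as each K1 library was left out. In the replication list the same differences were 0.0456 and 0.131.

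**Figure D4:**
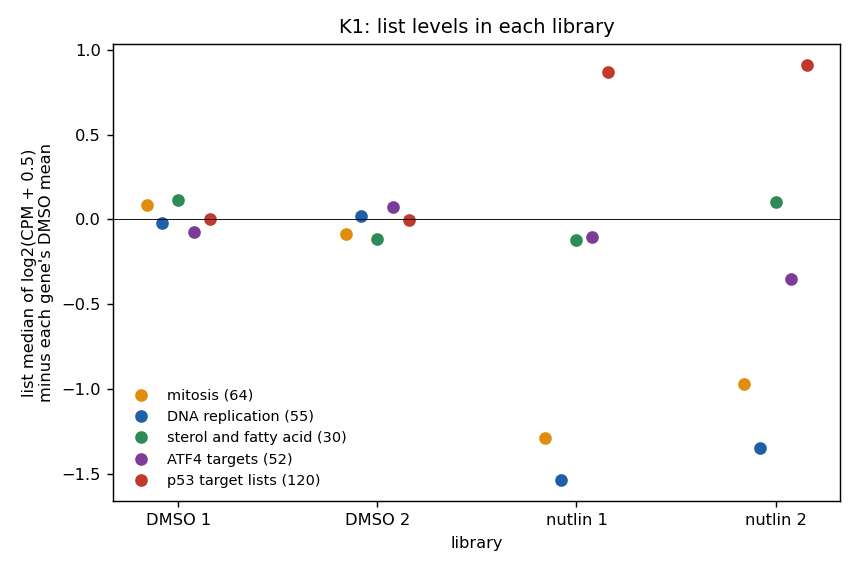
Median over the genes of 5 lists of log2(CPM + 0.5) minus the gene's own DMSO mean, in each K1 library. The p53 lists rise and the replication and mitosis lists fall in both nutlin libraries. The sterol list differs more between replicates (0.117 and -0.117 with DMSO, -0.120 and 0.101 with nutlin) than between treatments.

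Lowered genes were then split by the letters in their windows. Of 563 genes with E2F letters alone, 101 were lowered (17.9%) and 21 of these passed log2 -2. Of 1381 with CHR letters alone, 160 were lowered (11.6%) and 5 passed log2 -2. Of 59 with both, 19 were lowered (32.2%) and 0 passed it, and of 12830 with neither, 555 were lowered (4.33%) and 32 passed it. The median log2 change of the lowered genes was -1.20 with E2F letters alone, -1.09 with CHR letters alone, -1.12 with both and -0.89 with neither. These values describe letters in short windows and were not tested against each other.

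The integrated stress response, in which kinases of eIF2α raise translation of the transcription factor ATF4, was examined because the study relates p53 to it. Counts in this and the lists that follow stand beside 3.84% raised and 5.43% lowered among all genes. None of the 14 core genes of the response was called. ATF4 had 415 and 379 CPM with DMSO and 333 and 344 with nutlin, a log2 fold change of -0.23 (95% interval -0.36 to -0.10). The heme-sensing kinase gene EIF2AK1 had 102 and 96.9 CPM with DMSO and 99.98 and 105 with nutlin (log2 fold change 0.04, 95% interval -0.08 to 0.16). EIF2AK2 (-0.26), EIF2AK3 (0.30) and EIF2AK4 (0.09), the other eIF2α kinases, and the eIF2B subunits stayed within 1.5-fold. PPP1R15A, the phosphatase subunit GADD34, had 144 and 153 CPM with DMSO and 207 and 199.8 with nutlin, below the fold threshold at log2 0.46. Of 52 listed ATF4 targets, 7 fell (13.5%) and 2 rose (3.85%), with a median of -0.26. SESN2 and GDF15, which rose, are also p53 targets. GDF15, a secreted stress cytokine, had 0.456 and 0.243 CPM with DMSO and 1.04 and 1.65 with nutlin, all low levels. CHAC1, a glutathione-degrading enzyme, fell (14.1 and 11.8 CPM with DMSO and 7.03 and 5.06 with nutlin; log2 fold change -1.10, SE 0.16, adjusted p = 0.00018), as did JDP2 (16.1 and 18.5 CPM with DMSO and 10.5 and 8.82 with nutlin), SLC1A4 (38.2 and 41.9 CPM with DMSO and 25.9 and 19.2 with nutlin) and SLC7A11, the cystine transporter (36.5 and 46.05 CPM with DMSO and 35.1 and 16.8 with nutlin). The groups of SLC7A11 were not far apart beside their spread: its log2 change was -0.50 without DMSO replicate 2 and -0.23 without nutlin replicate 2, and neither was called. This list also moved between replicates, by a median log2 of 0.147 in DMSO and -0.236 in nutlin, and its median change ran from -0.35 to -0.10 as each library was left out. The part of this replicate difference in the falls was not tested.

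Of 35 genes of the NRF2 response, heme and iron, 2 rose (5.71%) and 1 fell (2.86%), shares near those of all genes. HMOX1, heme oxygenase 1, had 411 and 605 CPM with DMSO and 577 and 435 with nutlin: replicates differed more than the groups, and the 95% interval of its log2 change (-0.38 to 0.36) was centred near 0. The aldo-keto reductase AKR1B10 (0.970 and 0.566 CPM with DMSO and 2.74 and 1.89 with nutlin) and the iron exporter SLC40A1 (1.43 and 1.54 CPM with DMSO and 2.77 and 3.14 with nutlin) rose between low levels. None of 30 sterol and fatty acid genes was called, with FASN at 703 and 625 CPM with DMSO and 567 and 642 with nutlin. Sterol genes differed between replicates, with 1 of 30 higher in DMSO replicate 2 and 29 of 30 higher in nutlin replicate 2.

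Of 34 interferon genes 4 rose (11.8%) and 1 fell (2.94%). TAP1, the peptide transporter of antigen presentation, had 32.6 and 32.2 CPM with DMSO and 81.1 and 87.2 with nutlin (log2 fold change 1.38, SE 0.06, adjusted p = 1.7e-09), TRIM22 had 36.9 and 34.7 CPM with DMSO and 102 and 93.5 with nutlin and TLR3 had 3.91 and 4.99 CPM with DMSO and 7.62 and 7.48 with nutlin; STAT2 rose by log2 0.72, whereas the oligoadenylate synthetase OAS3 had 88.03 and 89.7 CPM with DMSO and 52.8 and 57.4 with nutlin. TRIM22 and TLR3 stand in the p53 lists too. MX1 (0.17) and IFIT1 (-0.11) were not called. Of 30 cytokines and secreted factors 3 rose (10%), IL1B and GDF15 among them, and 2 fell (6.67%), TNF (3.05 and 3.40 CPM with DMSO and 1.98 and 1.86 with nutlin) and IGFBP5 (7.16 and 7.79 CPM with DMSO and 4.85 and 4.56 with nutlin). IL6 (0.47) and CXCL8 (-0.35) were not called. Of 30 genes of EGFR and MAPK output, EPHA2 rose (149 and 151 CPM with DMSO and 256 and 262 with nutlin) and MYC fell (59.5 and 72.7 CPM with DMSO and 36.9 and 29.3 with nutlin; log2 fold change -1.001, SE 0.13, adjusted p = 3.9e-05), while DUSP6, SPRY4, EGR1 and PHLDA1 were not called. Of 33 matrix and adhesion genes 2 fell, COL1A1 (3.79 and 2.80 CPM with DMSO and 1.84 and 1.71 with nutlin) and THBS1 (16.7 and 21.6 CPM with DMSO and 12.2 and 8.85 with nutlin), and the integrin ITGA3 changed by log2 0.32 without a call.

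None of 77 ribosomal protein genes was called, with RPS2 at 2273 and 2539 CPM with DMSO and 2422 and 2373 with nutlin and RPL8 at 1343 and 1464 CPM with DMSO and 1384 and 1408 with nutlin, and 76 of the 77 were higher in DMSO replicate 2 than in replicate 1. Of 25 genes of the nucleolus and ribosome assembly 3 fell, the snoRNP protein NOP56 (227 and 266 CPM with DMSO and 156 and 154 with nutlin), NOLC1 (118 and 132 CPM with DMSO and 83.97 and 77.8 with nutlin) and the pseudouridine synthase DKC1 (89.3 and 102 CPM with DMSO and 62.8 and 62.997 with nutlin), with a list median of -0.29. As with the ribosomal proteins, nearly all of them (24 of 25) were higher in DMSO replicate 2 than in replicate 1. Each of the 3 was within 0.1 of the fold threshold on the log2 scale and lost its call without DMSO replicate 2 (log2 changes -0.55, -0.55 and -0.51), and NOLC1 also without nutlin replicate 2 (-0.58). Of 10 housekeeping genes HPRT1, a purine salvage enzyme, fell (29.5 and 29.5 CPM with DMSO and 17.1 and 19.4 with nutlin).

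Of 15 long noncoding RNAs tested 4 rose. PVT1 had 6.05 and 8.01 CPM with DMSO and 17.4 and 18.8 with nutlin (log2 fold change 1.36, SE 0.12, adjusted p = 9.8e-07), TP53TG1 had 4.39 and 4.53 CPM with DMSO and 9.18 and 9.35 with nutlin, and the nuclear RNAs NEAT1 and MALAT1 rose by log2 0.85 and 0.73. MIR17HG, the host of the miR-17-92 cluster (1.65 and 1.40 CPM with DMSO and 0.762 and 0.404 with nutlin), the snoRNA host SNHG1 (31.8 and 40.4 CPM with DMSO and 21.6 and 18.8 with nutlin) and DLEU2 (3.45 and 3.40 CPM with DMSO and 2.56 and 1.92 with nutlin) fell. Without nutlin replicate 2 the log2 change was -0.997 for MIR17HG and -0.42 for DLEU2, neither of them called, and DLEU2 also lost its call without either DMSO replicate (-0.60 and -0.63). Replication-dependent histone mRNAs normally lack poly(A) tails and these libraries were poly(A)-selected, so such genes are seen only through their polyadenylated forms. Of 23 histone genes tested, not all of them replication-dependent, 3 fell, the linker histone H1F0 (12.6 and 13.05 CPM with DMSO and 6.13 and 5.68 with nutlin), H2AFX (186 and 174 CPM with DMSO and 78.8 and 92.6 with nutlin) and H2AFZ (307 and 321 CPM with DMSO and 177 and 185 with nutlin). HIST1H2BD, HIST2H2BE and HIST1H2AC rose (2.45 and 3.02 CPM with DMSO and 4.78 and 5.00 with nutlin; 4.45 and 4.18 CPM with DMSO and 6.24 and 8.79 with nutlin; 3.68 and 3.56 CPM with DMSO and 4.99 and 7.33 with nutlin). Without nutlin replicate 2 the log2 change was 0.53 for HIST2H2BE and 0.46 for HIST1H2AC, and neither was called.

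Of 9 thyroid markers tested 3 rose and none was called lowered, and 2 of the 9 had a fitted log2 change below 0 (lowest -0.54). Thyroglobulin, TG, had 2.79 and 2.78 CPM with DMSO and 5.51 and 5.68 with nutlin (log2 fold change 1.01, SE 0.13, adjusted p = 4.5e-05) and the oxidase DUOX1 had 3.54 and 2.32 CPM with DMSO and 5.27 and 5.46 with nutlin. The iodide transporter SLC5A5 had 5 and 0 counts with DMSO and 11 and 21 with nutlin, so its rise rests on few reads and was not called without DMSO replicate 2 (log2 change 1.85) or without nutlin replicate 2 (2.40). PAX8 (0.13) and FOXE1 (0.20) were not called. HHEX, also on the thyroid list, had 93 and 103 counts with DMSO and 41 and 73 with nutlin and was not called. Of 7 epithelial markers CLDN1, a tight junction protein, rose (94.8 and 111 CPM with DMSO and 184 and 147 with nutlin) but was not called without DMSO replicate 1 (log2 change 0.58) or nutlin replicate 1 (0.52), and KRT8 and KRT18 were not called.

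The size of the K1 response was set against that of TPC1 by a test of the difference of the 2 responses over all 16 libraries, in which 1462 of 16738 genes (8.73%) had a higher log2 change in K1 and 1755 (10.5%) a lower one. Most K1 calls went the same way in TPC1. Of the 611 genes raised in K1, 453 were raised in TPC1 and 4 lowered. Of the 863 lowered in K1, 735 were lowered in TPC1 and 9 raised. Beside these, the genes without a call in K1 held 2539 raised, 1955 lowered and 10770 not called in TPC1. Changes given for both lines come from this fit, which moves the K1 values slightly. The extent differed. In the p53 lists the log2 change was lower in K1 than in TPC1 in 89 of 120 genes and higher in 1, with medians of 0.91 and 2.01. The gene with the higher change in K1 was PRDM1 (log2 2.17 in K1 and 0.91 in TPC1). By role, the K1 change was lower for all 22 metabolic targets and for 9 of 11 genes of the feedback list, 12 of 19 apoptosis genes and 7 of 11 arrest genes. CDKN1A rose by log2 3.16 in K1 and 5.64 in TPC1 (difference -2.48 ± 0.15 (SE), adjusted p = 4.3e-09), and MDM2 by 3.04 and 5.00 (difference -1.95 ± 0.12 (SE), adjusted p = 4e-09). TP73 went the other way, with 5.77 in K1 and 2.61 in TPC1 (difference 3.16 ± 0.63 (SE), adjusted p = 0.0011). INPP5D (4.01 and 4.11) rose in both lines, with a difference of -0.09 ± 0.41 (SE).

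For the lists of the cell cycle, the log2 change was higher (less negative) in K1 for 63 of 64 mitosis genes (median -1.14 against -4.04 in TPC1), for 37 of 55 replication genes (-1.49 against -2.32) and for 21 of 35 recombination and Fanconi genes (-1.39 against -2.50). MKI67 fell by log2 -1.33 in K1 and -5.59 in TPC1 (difference 4.26 ± 0.24 (SE), adjusted p = 2.4e-09), whereas DTL fell by -3.01 and -3.76 (difference 0.75 ± 0.13 (SE), adjusted p = 0.00041). In K1 the replication list thus had the lower median of these 2 lists, and in TPC1 the mitosis list did. The order between lists was not tested. TPC1 columns numbered 3 were matched by treatment alone. The lines were grown in different media, so line and medium cannot be told apart.

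**Figure D5:**
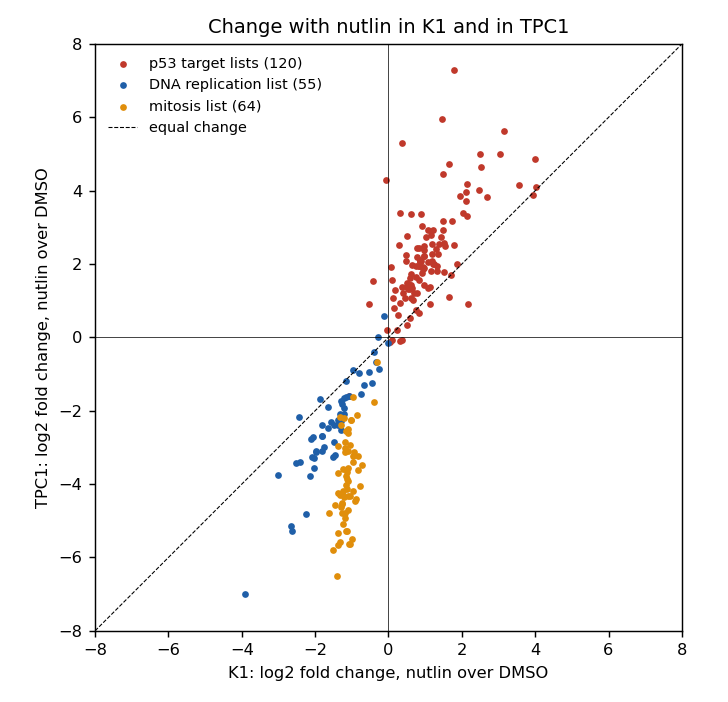
Fitted log2 fold change with nutlin in TPC1 (vertical axis) against K1 (horizontal axis) for p53 targets, replication genes and mitosis genes, with a dashed line of equal change. Mitosis genes form a column near -1.14 in K1 that reaches below -6 in TPC1, and most p53 targets lie above the line.

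The 6 largest called differences each way outside the largest K1 changes were taken among genes that reached a mean of 5 CPM in some group. UNC13A, a synaptic vesicle protein, had 4.65 and 3.53 CPM with DMSO and 5.02 and 6.30 with nutlin in K1, and in TPC1 0.185 and 0.126 CPM with DMSO and 105 and 81.96 with nutlin. CEACAM1, an adhesion molecule, had 1.11 and 1.05 CPM with DMSO and 4.61 and 4.41 with nutlin in K1, and in TPC1 0.132 and 0.238 CPM with DMSO and 51.2 and 47.5 with nutlin. DRAXIN had 0.132 and 0.182 CPM with DMSO and 15.3 and 13.6 with nutlin in TPC1 and was not called in K1. FAM13C (in TPC1 0.0528 and 0.0420 CPM with DMSO and 7.59 and 7.79 with nutlin) and APLP1 (in TPC1 0.0264 and 0 CPM with DMSO and 0.674 and 0.562 with nutlin) had 3 counts or fewer in each DMSO library of TPC1, so their fitted differences depend on the prior count of the fit. The fitted differences of HAS2 and DENND2D depend on it too, through their 0 counts with nutlin in TPC1. HAS2, a hyaluronan synthase, had 16.03 and 17.8 CPM with DMSO and 15.98 and 14.3 with nutlin in K1. In TPC1 it had 0.185 and 0.112 CPM with DMSO and 0 and 0 with nutlin. DENND2D had 9.44 and 10.002 CPM with DMSO and 11.8 and 10.6 with nutlin in K1. In TPC1 it had 0 and 0.0980 CPM with DMSO and 0 and 0 with nutlin. Both were nearly absent from TPC1 whatever the treatment, and no fall in TPC1 is read from them. The kinetochore genes HJURP and CENPA and the centrosomal kinase NEK2 fell in both lines, by log2 -1.41, -1.07 and -1.06 in K1 and -6.52, -5.64 and -5.63 in TPC1. KCNH1 and PAX5 were below the filter in K1, with 3, 1, 0 and 0 counts and 0, 0, 3 and 0 counts in the DMSO and nutlin libraries, so their fitted differences depend on the prior count of the fit and bound nothing.

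A few genes were called in opposite directions in the 2 lines with a called difference, 13 in all. PODXL, the sialomucin podocalyxin, changed by log2 -0.60 in K1 and 2.19 in TPC1, and PMEPA1, an inhibitor of TGF-beta signalling, by -0.65 and 0.89. The fatty acid elongase ELOVL2 changed by -1.06 and 2.01, and PARM1 by 1.21 and -0.79. These were named after their values were seen.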

How the data were processed

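Poly(A)-selected, stranded RNA was sequenced as single-end 150-base reads. Per the methods and processing notes of the authors, reads were aligned to GRCh37 (hg19) with TopHat2 2.0.13 and Bowtie2 2.2.3.0, reads of mapping quality under 10 were removed, and reads per gene were counted strand-specifically with HTSeq 0.6.1. The authors deposited these as raw counts per gene symbol, not normalized, in 1 table of 16 libraries. The mapping filter removes reads that near-identical gene copies share, so levels of such genes are uncertain.

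Genes above 0.1 CPM in at least 2 K1 libraries (15900) were tested with edgeR 4.0.16 in R 4.3.3 (TMM scaling, quasi-likelihood test, Benjamini-Hochberg adjustment). All 8 K1 libraries were fitted together, leaving 4 residual degrees of freedom, and CPM values carry the TMM scaling unless called raw. The standard error (SE) was taken as the log2 fold change over the root of the F statistic. The line difference was tested over all 16 libraries. On simulated counts for 15662 genes with 100 changed at each of 2 sizes, the test called 99% at a log2 change of 1 and 100% at 2, with 3 false calls. The changed genes were drawn only from those averaging over 1 CPM. Counts were simulated with the typical spread at each level in place of each gene's own. The rates therefore do not cover lower genes or genes of unusual spread. Libraries of 28888686 to 37161241 counts put the floor of a count of 0 near 0.1 CPM.

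The lists, the members and the rule for named genes were chosen with earlier results of these data known. The rule took the 12 largest called rises and falls at 5 CPM or more whose replicates did not overlap, the 5 called genes with the largest gains and the 5 with the largest losses in CPM, up to 3 called members of each list in each direction (or its 2 most abundant where few were called), all genes of 4 short lists, the 5 genes with most counts and the 6 largest called line differences each way at 5 CPM or more. Other list members are given by value alone. Replicates with the same number did not deviate together in every pair of groups, so the main test has no block. Alternatives were other scalings, filters, tools and thresholds, correction for GC content and length (15046 genes), a replicate block and leaving out each library. Some genes of these lists are not reported here.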

Additional observations from a re-analysis of the deposited data

Results flagged for a closer look

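The nutlin response differed between K1 and TPC1 in 104 of the 166 genes named by rule, by the interaction term of the fit over 16 libraries (edgeR's quasi-likelihood test, Benjamini-Hochberg adjusted p under 0.05 and a difference above 1.5-fold). Given here are the values of those with the largest K1 changes or line differences and of 6 other genes, 4 of them outside the rule. The other 68 ranged from -4.49 to -0.61 in the 40 with the lower change in K1 and from 0.68 to 4.30 in the 28 with the higher one. Each value is the log2 fold change in K1 minus that in TPC1, so that a positive value of a gene that fell means a smaller fall in K1. No group of libraries was large enough to look for a single library that stood apart.

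Among the genes that fell furthest in K1, the difference was 2.54 for CCNE2, 3.07 for FAM111B, 1.86 for ZNF367, 1.23 for WDR76, 0.75 for DTL, 0.99 for PAQR4, 1.49 for E2F8, 2.49 for CLSPN, 2.66 for MCM10, 1.62 for E2F1 and 0.91 for ORC1. CDCA7, a chromatin-remodelling cofactor, was the one among these with a larger fall in K1 (-1.10). Among the genes that rose furthest, the difference was -0.87 for BTG2, -1.50 for PVRL4, -3.77 for CDH10, -2.48 for CDKN1A, -2.07 for RRAD, -1.95 for MDM2, -1.13 for ACER2 and -1.42 for SUGCT, each with the smaller rise in K1. TP73 (3.16) and FLG-AS1 (1.33) had the larger rise in K1.

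The widest differences at 5 CPM or more were -8.80 for UNC13A, -6.06 for KCNH1, -5.87 for CEACAM1, -5.82 for DRAXIN, -5.51 for FAM13C and -5.48 for APLP1 on the one side. On the other side they were 5.70 for PAX5, 5.397 for HAS2, 5.11 for HJURP, 4.68 for DENND2D, 4.57 for NEK2 and 4.56 for CENPA. KCNH1 and PAX5 were all but silent in K1, HAS2 and DENND2D were all but silent in TPC1, and FAM13C and APLP1 were so in TPC1 with DMSO, so these 6 values depend on the prior count of the fit. The lines also differed in culture medium, which cannot be told apart from the line. MKI67 differed by 4.26, PRDM1 by 1.26, PODXL by -2.79, PMEPA1 by -1.53, ELOVL2 by -3.07 and PARM1 by 1.99.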

How the results depend on the processing

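The counts of 611 raised and 863 lowered genes depended mainly on the fold threshold. They were 234 and 430 when the change itself was tested against 1.5-fold, 271 and 412 with a fold above 2, and 2143 and 2637 with no fold threshold. Listed p53 targets raised went from 86 to 51 with a fold above 2. Under the other scalings, filters, the fit of 4 libraries alone and DESeq2 (498 raised and 754 lowered), the counts stayed within 1.5 times. Leaving out each K1 library in turn gave 507 to 622 raised and 804 to 875 lowered, 84 to 88 p53 targets raised and 167 to 169 cell cycle genes lowered. In the line comparison, leaving out a library gave 1354 to 1569 higher and 1554 to 1803 lower. Correction for GC content and length gave 622 raised and 782 lowered among 15046 genes. Of 3116 recomputed values of 164 named genes, 2993 kept their direction and call, 104 lost the call, 19 gained it and none changed sign.

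The replicate block gave 597 raised and 859 lowered in K1, and 1508 higher and 1862 lower in the line comparison. Replicate numbers did not pair all libraries: over 12544 genes the difference between DMSO replicates correlated at -0.288, -0.357 and -0.292 with those of nutlin, GSK2830371 and the combination, while the 3 pairs of treated groups gave 0.145 to 0.376. Crossing the pairing, which was chosen after seeing the data, gave 661 and 903. With 2 libraries a group, small changes of low genes are not resolved.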

Other observations

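Among 723 long noncoding RNAs tested, 33 rose (4.56%) and 18 fell (2.49%), beside 515 (3.70%) and 812 (5.83%) of 13924 protein-coding genes. The shares were not tested against each other. Most called genes lay outside every list: the lists held 112 of the 611 raised and 198 of the 863 lowered genes. The median GC content of the gene models was 49.3% for raised genes, 44.7% for lowered genes and 47.9% for all genes tested.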
